A study of Mus musculus with 12 samples.

Results

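The 7 genes described here encode proteins known from the surface of red blood cells: Slc14a1, Aqp1, Ache, Darc, Mfsd2b, Ermap and Kel. They were taken by name from the 23472 genes counted in mouse LT-HSCs, the long-lived stem cells of the bone marrow from which all blood cells derive, and all 7 passed the filter on low counts, with 13184 genes in all. They were chosen by their measured difference between Jak1 KO and wt in these same libraries, so that difference is given as a description, with no p-value. Where a fit over all genes puts them past its threshold, this is stated as a property of the chosen genes and is no evidence for the difference. The table held 6 Jak1 KO libraries from cre-positive C57BL/6 mice and 6 wt libraries from cre-negative C57BL/6 mice, and both groups had received poly(I:C), an RNA mimic that triggers interferon, in 4 doses 4 to 6 weeks before marrow harvest, to induce the gene deletion. By their names the libraries form a ZL set (replicates 4 to 6 of each genotype) and a VD set (replicates 1 to 3). The labels do not spell out the driver of cre, though VD library names begin with MXplus for Jak1 KO and MXminus for wt. Nor do the labels give the deleted exons, the age of the mice or whether each library is a separate animal. The p-values then measure just the spread among the libraries, part of which may be technical. Effects of cre and of a Jak1 deletion cannot be told apart, since only the Jak1 KO mice carried cre.

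A mature red cell has no nucleus, and its membrane proteins are made during erythroid maturation in the marrow. Many of them carry blood-group antigens in humans. Slc14a1 is the urea transporter UT-B and carries the Kidd antigens. Aqp1 is a water channel and carries the Colton antigens. Ache is acetylcholinesterase, which carries the Cartwright antigens. Darc, now named Ackr1, is an atypical chemokine receptor, the Duffy antigen. Ermap is a butyrophilin-like membrane protein that carries the Scianna antigens, and Kel is a metallopeptidase that cleaves endothelin precursors and carries the Kell antigens. Mfsd2b exports sphingosine-1-phosphate, a lipid signal for lymphocytes and vessels, from red cells and platelets. In humans, red cells without Darc arise from a change in a GATA motif of its promoter. Several of these proteins also work outside the red-cell line, Aqp1 and Darc in vascular endothelium and Ache at synapses.

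Total counts ranged from 8989965 to 28701855 per library. Jak1 itself, a tyrosine kinase of cytokine receptors, stood at 246 to 727 normalised CPM (reads scaled to library size with TMM factors) in Jak1 KO libraries and 321 to 435 in wt libraries. A whole-gene count may hold reads of undeleted exons, so it does not check the labels. Of 15 LT-HSC markers all were tested, with a median log2 fold change of 0.07 and 0 past the threshold by edgeR. At an unadjusted p under 0.05 there were 3. Ly6a (log2 fold change -1.12) and Slamf1 (-0.30) had the smallest p, and the other lay above 0, at 0.29. Markers of later erythroid cells summed to 56.0 to 108 normalised CPM in Jak1 KO libraries and 61.7 to 118 in 5 of the wt libraries, but to 3790 in wt 2, where the globin transcript listed as Beta-s stood at 3450. The genotype difference of each of the 7 genes is therefore also given without wt 2.

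The start regions of the genes were compared first, because erythroid genes are commonly controlled by GATA and Kruppel-like factors. RefSeq (GRCm38.p6) gave a promoter entry, 250 bases before to 50 after an annotated start, for 6 of the 7 genes. A GATA motif, searched on both strands as AGATAA, as AGATAG, as TGATAA or as TGATAG, was found in 3 of these 6, Darc, Ermap and Kel, against 29.8% of all 32851 promoters of that length. It is shown in capitals in these 3 sequences, which are set beside that of Mfsd2b, a more abundant gene with no such match.
Darc promoter, chr1:173333454-173333753, minus strand: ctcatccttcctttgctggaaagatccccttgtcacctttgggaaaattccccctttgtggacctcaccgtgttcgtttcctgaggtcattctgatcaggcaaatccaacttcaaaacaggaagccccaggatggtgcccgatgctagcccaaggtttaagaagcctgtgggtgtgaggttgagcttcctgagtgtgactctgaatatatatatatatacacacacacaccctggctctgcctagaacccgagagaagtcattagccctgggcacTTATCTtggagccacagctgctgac
Ermap promoter, chr4:119189946-119190245, minus strand: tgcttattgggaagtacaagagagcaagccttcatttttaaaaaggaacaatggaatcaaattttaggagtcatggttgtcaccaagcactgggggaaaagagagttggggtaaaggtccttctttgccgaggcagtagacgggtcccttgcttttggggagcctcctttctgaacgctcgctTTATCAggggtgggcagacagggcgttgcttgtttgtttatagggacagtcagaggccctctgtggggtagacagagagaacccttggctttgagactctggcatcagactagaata
Kel promoter, chr6:41704276-41704575, minus strand: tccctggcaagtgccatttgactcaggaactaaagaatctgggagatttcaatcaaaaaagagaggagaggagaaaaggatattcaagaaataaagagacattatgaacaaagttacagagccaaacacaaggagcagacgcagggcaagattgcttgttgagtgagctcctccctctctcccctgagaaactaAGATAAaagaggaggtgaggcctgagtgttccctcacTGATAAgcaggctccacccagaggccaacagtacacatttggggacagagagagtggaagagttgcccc
Mfsd2b promoter, chr12:4874310-4874609, minus strand: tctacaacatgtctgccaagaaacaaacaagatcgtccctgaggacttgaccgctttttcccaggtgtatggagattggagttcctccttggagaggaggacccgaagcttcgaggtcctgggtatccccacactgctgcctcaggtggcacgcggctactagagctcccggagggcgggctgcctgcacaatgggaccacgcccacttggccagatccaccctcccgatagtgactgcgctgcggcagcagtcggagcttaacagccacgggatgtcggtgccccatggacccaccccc
The match in Darc read TTATCT along the gene, 25 bases past the start, and that in Ermap read TTATCA, 67 bases before it. Kel had a pair of matches, AGATAA at 56 and TGATAA at 19 bases before the start. The motif CCNCNCCC, searched on both strands as a Kruppel-like factor site, was found in the other 3, Mfsd2b, Aqp1 and Ache, where 4 of the 6 matches in Ache overlapped another, and in 49.5% of all promoters. The STAT motif TTCNNNGAA and the interferon-response motif (GAAA, any 2 bases, then GAAA) were found in 0 of the 6, against 8.30% and 3.44% of all promoters. A match is a description of these letters only, and its absence says nothing of the factor.

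The levels of the 7 genes in LT-HSCs spanned from the upper part of the range of all genes to near the detection limit. Levels between genes are compared as normalised CPM per kb of merged exon, from GENCODE of the same assembly. Slc14a1 was the most abundant of the 7, at 37.4 ± 9.31 CPM per kb in Jak1 KO libraries and 77.2 ± 28.3 in wt libraries (SD, n = 6 each). It ranked 1445th in Jak1 KO and 449th in wt among 13072 genes with an exon length. Mfsd2b followed in wt at 37.3 ± 6.50 CPM per kb and Aqp1 at 36.5 ± 14.6, and Mfsd2b was the higher of this pair in 3 of 6 wt libraries, so their order is not fixed by these data. In Jak1 KO libraries Aqp1 averaged 19.1 ± 9.66 and Mfsd2b 15.4 ± 2.73 CPM per kb, with Aqp1 higher in 4 of 6. Ache stood below them in every library, at 4.36 ± 1.34 in Jak1 KO and 10.5 ± 2.48 in wt, and ranked 8532nd in Jak1 KO and 5383rd in wt.

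Darc, Ermap and Kel were scarce. Darc averaged 0.610 ± 0.390 CPM per kb in Jak1 KO libraries and 2.84 ± 1.73 in wt libraries. Ermap and Kel averaged 0.639 ± 0.900 and 0.497 ± 0.270 in Jak1 KO libraries, and 0.665 ± 0.580 and 0.617 ± 0.478 in wt libraries. In wt, Darc was above Ermap in 5 of 6 libraries and Ermap above Kel in 3 of 6. In Jak1 KO libraries Ermap was above Darc in 2 of 6 and Darc above Kel in 4 of 6, so the bottom 3 could not be ordered there.

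**Figure D1:**
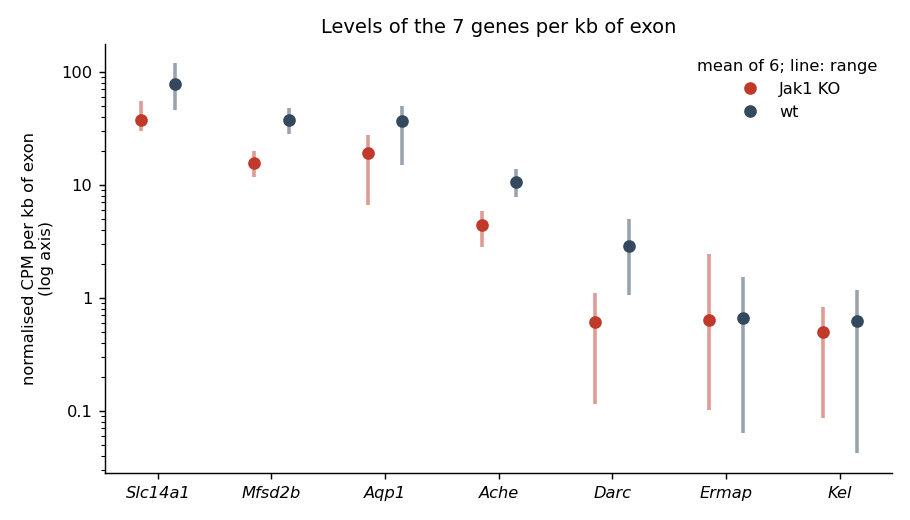
Mean normalised CPM per kb of exon (log axis, points) and range over 6 libraries (lines) of each gene in Jak1 KO and wt LT-HSCs. Slc14a1 is highest in both, and Darc, Ermap and Kel lie below the 4.36 and 10.5 of Ache.

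All 7 genes had a log2 fold change below 0 for Jak1 KO over wt, with a median of -1.02, against a median of -0.006 over all genes tested. Slc14a1, Mfsd2b, Ache and Darc, 4 of the 7, were past edgeR's adjusted p of 0.05, all lower, where 0.432% of all genes tested were lower past it. No gene of the 7 was higher past it, against 0.00758% of all genes. For the same 4 genes the Jak1 KO and wt libraries did not overlap within either name set, an arrangement, with Jak1 KO lower, that 0.963% of all genes tested had. A log2 fold change of -1 or lower was seen for Mfsd2b, Aqp1, Ache and Darc, and for 1.02% of all genes. Only Ache and Mfsd2b had every Jak1 KO library below all 6 wt libraries, as did 0.356% of all genes. Without the set term in the model Mfsd2b alone of the 7 passed, with 14 of all genes. In ZL alone 0 of the 7 and 0 of all genes did, and in VD alone 4 of the 7 and 149 of all genes. Since the genes were chosen with this contrast known, nothing is read from these counts. In bulk RNA, fewer cells of a type and less RNA per cell cannot be told apart.

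Of the transporters, Slc14a1, the urea transporter gene on chromosome 18 (78100091 to 78142119, GRCm38), stood in ZL at 141, 159 and 219.5 normalised CPM in Jak1 KO libraries, against 345, 389.5 and 471 in wt libraries. In VD it stood at 125, 133 and 118 in Jak1 KO libraries, against 259, 201 and 184 in wt. The groups did not overlap within either set, and Jak1 KO 6 was above wt 2 and wt 3 of the other set. Over all 12 libraries Slc14a1 was 1.99-fold lower in Jak1 KO (log2 fold change -0.99, SE 0.16), and -1.04 without wt 2.

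Mfsd2b, the sphingosine-1-phosphate exporter gene on chromosome 12 (4862440 to 4874359), stood in ZL at 73.3, 60.2 and 78.4 normalised CPM in Jak1 KO libraries, against 179, 184 and 247 in wt. In VD it stood at 87.8, 75.0 and 101 in Jak1 KO, against 195, 145 and 200.3 in wt. Every Jak1 KO library was below every wt library. It was 2.43-fold lower in Jak1 KO (log2 fold change -1.28, SE 0.16), and -1.37 without wt 2. The log2 fold change was -1.53 in ZL alone (SE 0.26) and -0.99 in VD alone (SE 0.13).

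Aqp1, the water channel gene on chromosome 6 (55336432 to 55348555), stood in ZL at 24.6, 17.4 and 43.0 normalised CPM in Jak1 KO libraries, against 58.5, 38.8 and 106 in wt. In VD it stood at 72.4, 72.6 and 71.1 in Jak1 KO, against 131, 113 and 129 in wt. In VD the groups lay apart, with the 3 Jak1 KO libraries within 2 CPM of each other. In ZL they overlapped, as Jak1 KO 6 was above wt 5. The log2 fold change was -1.02 (SE 0.25), -1.08 without wt 2, and it was past the threshold in none of the 12 fits that left out 1 library, though it passed with DESeq2 and with limma-voom.

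Among the surface enzymes, Ache, on chromosome 5 (137287519 to 137294466), stood in ZL at 13.7, 13.1 and 17.9 normalised CPM in Jak1 KO libraries, against 40.9, 35.9 and 38.6 in wt. In VD it stood at 27.3, 22.8 and 26.1 in Jak1 KO, against 63.5, 55.2 and 56.9 in wt. It had the smallest spread within genotype and set of the 7 genes (residual SD 0.16 on the log2 scale), and the groups did not overlap over the 12 libraries. It was 2.44-fold lower in Jak1 KO (log2 fold change -1.29, SE 0.14), and -1.31 without wt 2. Butyrylcholinesterase (Bche), its closest relative, averaged 0 in Jak1 KO and 0.0605 CPM in wt and was not tested.

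Kel, the Kell peptidase gene on chromosome 6 (41686330 to 41704339), was at the limit of detection, with 3 to 88 reads per library. It ranged from 0.240 to 2.32 normalised CPM in Jak1 KO libraries (median 1.52) and from 0.116 to 3.26 in wt libraries (median 1.49). The groups overlapped in both sets. Its log2 fold change of -0.31 (SE 0.66) was smaller than its SE. It was -0.30 without wt 2 and 0.25 without wt 6.

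Darc, the chemokine receptor gene on chromosome 1 (173331886 to 173333750), had the largest fold difference of the 7 on few reads. In ZL it stood at 1.13, 1.55 and 1.12 normalised CPM in Jak1 KO libraries, against 2.64, 6.78 and 7.04 in wt. In VD it had 2, 2 and 10 reads in Jak1 KO libraries (0.160, 0.244 and 0.937 CPM), against 22, 36 and 22 in wt (1.49, 4.04 and 1.92 CPM). It was 4.73-fold lower in Jak1 KO (log2 fold change -2.24, SE 0.45), and -2.03 without wt 2, the VD library with its highest level. Darc was past the threshold in 2 of the 12 fits that left out 1 library, those without Jak1 KO 3 or wt 4. GENCODE gives Darc and the neighbouring Cadm3 361 shared exon bases on the same strand, 25.7% of the exons of Darc. Cadm3 had 1 to 14 reads in Jak1 KO libraries and 3 to 33 in wt libraries, and how reads in the shared part were assigned is not given in the sources used here.

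Ermap, the erythroblast membrane protein gene on chromosome 4 (119175457 to 119190011), varied widely between libraries of a group, as did Kel (residual SD 1.38 on the log2 scale for both). In ZL it stood at 0.905, 0.539 and 0.757 normalised CPM in Jak1 KO libraries, all below the 2.10, 1.23 and 2.93 in wt. In VD it stood at 2.56, 12.9 and 2.62 in Jak1 KO, on both sides of the 0.339, 6.51 and 8.04 in wt. The log2 fold change was -0.58 (SE 0.66) over all libraries, -0.61 without wt 2, -1.52 in ZL alone and 0.31 in VD alone.

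**Figure D2:**
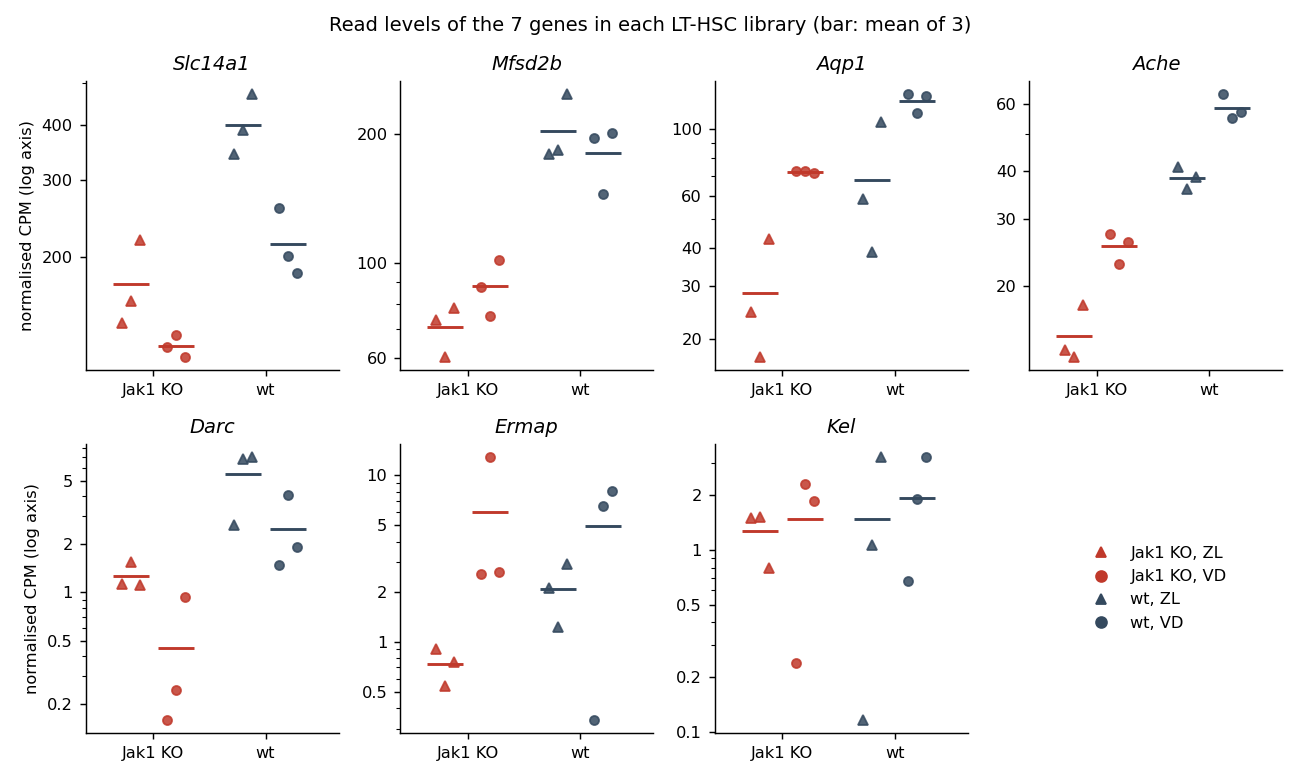
Normalised CPM (log axis) of each gene in every library, by genotype and name set, with bars at the mean of 3. For Slc14a1, Mfsd2b, Ache and Darc the Jak1 KO points lie under the wt points of the same set, while those of Kel overlap in both sets.

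**Figure D3:**
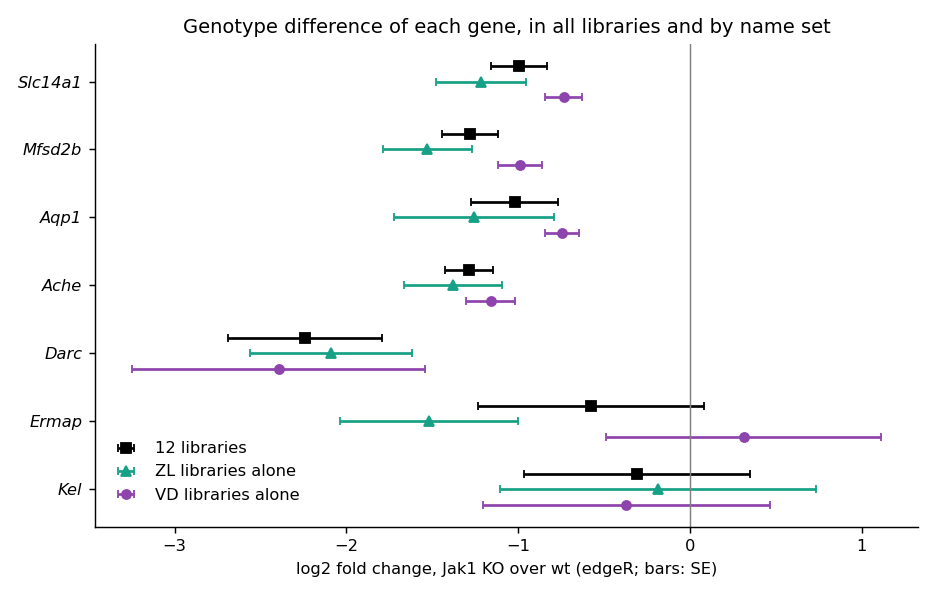
Log2 fold change of Jak1 KO over wt (edgeR, bars: SE) for each gene in all 12 libraries, in ZL alone and in VD alone. Ermap is the gene whose ZL (-1.52) and VD (0.31) values lie on opposite sides of 0.

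The interaction between genotype and name set asked whether these differences themselves differed between the sets. By edgeR it was past the threshold for 0 of the 7 genes and for 0 of all genes (0% called). At an unadjusted p under 0.05 edgeR gave 0 of the 7 and 182 of all genes (1.38%), limma-voom 2 of the 7 and 1060 of all genes, and edgeR without Jak1 KO 6 gave 1 of the 7 and 2136 of all genes. With DESeq2 1 gene passed and with limma-voom 0, and neither passed any of the 7. The estimate was -0.49 for Mfsd2b (SE 0.31, adjusted p = 0.975) and -1.80 for Ermap (SE 1.24, adjusted p = 0.975), so a difference between sets was not detectable rather than absent.

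The name sets differed for 5 of the 7 genes. This contrast was assumed not to have entered the choice of genes. It was past edgeR's threshold for 60% of all genes tested (35.4% higher in ZL, 24.5% lower), so 5 of 7 is near the background. Slc14a1 averaged 288 ± 134 normalised CPM in ZL and 170.0 ± 54.9 in VD (SD, n = 6 each), with a log2 fold change of 0.69 (SE 0.16, adjusted p = 0.0022). Darc was also higher in ZL (1.30, SE 0.44, adjusted p = 0.0203), a call lost without wt 5. The other 3 were lower in ZL. Aqp1 averaged 48.0 ± 31.8 in ZL and 98.1 ± 29.2 in VD (-1.11, SE 0.25, adjusted p = 0.00195), and Ache 26.7 ± 13.1 in ZL and 42 ± 18.4 in VD (-0.69, SE 0.14, adjusted p = 0.000813). Ermap averaged 1.41 ± 0.921 in ZL and 5.50 ± 4.61 in VD (-2.10, SE 0.67, adjusted p = 0.0152). Mfsd2b (-0.07, SE 0.16) and Kel (-0.29, SE 0.66) were not past the threshold. The median of all genes lay at 0.20 in this contrast. The sets also differed in the share of reads on the ribosomal RNA gene Rn45s. This share was 0.511% to 0.950% in ZL and 14.8% to 22.6% in VD. Markers of neutrophil granules differed too, summing to 95.8 to 260 normalised CPM in ZL libraries and 598 to 1550 in VD libraries. The part of either in these differences was not tested.

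Other red-cell genes were compared between genotypes with 5 lists of 137 genes, of which 102 were tested. None of the 102 was past edgeR's adjusted p of 0.05 (0 lower, 0 higher), against 0.44% of all genes in either direction. By edgeR 9 of the 102 reached an unadjusted p under 0.05 (5.06% of all genes did), and 1 passed with DESeq2 and 5 with limma-voom. Below 0 lay 65 of the 102, and the median was -0.11. The median of all genes tested was -0.006, so about as many of all genes lay below 0 as above it. The counts below 0 in these lists were not tested. Of 30 tested genes that carry other blood groups 17 lay below 0, with a median of -0.03. Those with the smallest p were C4b, complement C4, at 0.378 ± 0.552 CPM in Jak1 KO and 2.49 ± 1.16 in wt (log2 fold change -2.74, edgeR adjusted p = 0.505), and Art4, the Dombrock antigen gene, at 112 ± 31.5 in Jak1 KO and 91.2 ± 28.6 in wt (0.33). Rhag, of the Rh complex, ranged from 5.34 to 13.6 CPM in Jak1 KO libraries and from 3.46 to 14.2 in wt libraries.

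The membrane skeleton list had 21 tested genes, 16 of them below 0, with a median of -0.23. Sptb, erythroid beta-spectrin, had a log2 fold change of -1.42 (SE 0.56, edgeR adjusted p = 0.838), and Stom, stomatin, one of -0.40 (SE 0.16, adjusted p = 0.838). Of 16 tested globin and haem genes 9 lay below 0, with a median of -0.01. Epor, the erythropoietin receptor, stood at 23.9 ± 7.26 CPM in Jak1 KO and 32.8 ± 4.66 in wt (-0.49, adjusted p = 0.767), and Car2, a carbonic anhydrase, stood at 2480 ± 1900 in Jak1 KO and 1680 ± 953 in wt (0.42, adjusted p = 0.838).

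Among 18 tested erythroid transcription factors, with a median of -0.10 and 11 below 0, Gata1 had the smallest p. This activator of erythroid and megakaryocyte genes stood at 43.6 ± 16.8 CPM in Jak1 KO and 77.7 ± 18.9 in wt (log2 fold change -0.86, SE 0.18, edgeR adjusted p = 0.0539). It passed without Jak1 KO 4 (adjusted p = 0.00819). Fli1, a megakaryocyte factor, differed by -0.44 on the log2 scale (adjusted p = 0.656), and Klf1, the erythroid Kruppel-like factor, one of -0.45 (adjusted p = 0.945).

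Relatives and partners of the 7 genes had 17 tested members, 12 below 0, with a median of -0.22. Slc14a2, the other urea transporter gene, stood at 1.62 ± 0.907 CPM in Jak1 KO and 4.02 ± 1.52 in wt (-1.28, SE 0.415, edgeR adjusted p = 0.539). S1pr2, a receptor for the lipid that Mfsd2b exports, differed by -0.42 on the log2 scale (adjusted p = 0.945). Neither passed the test.

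**Figure D4:**
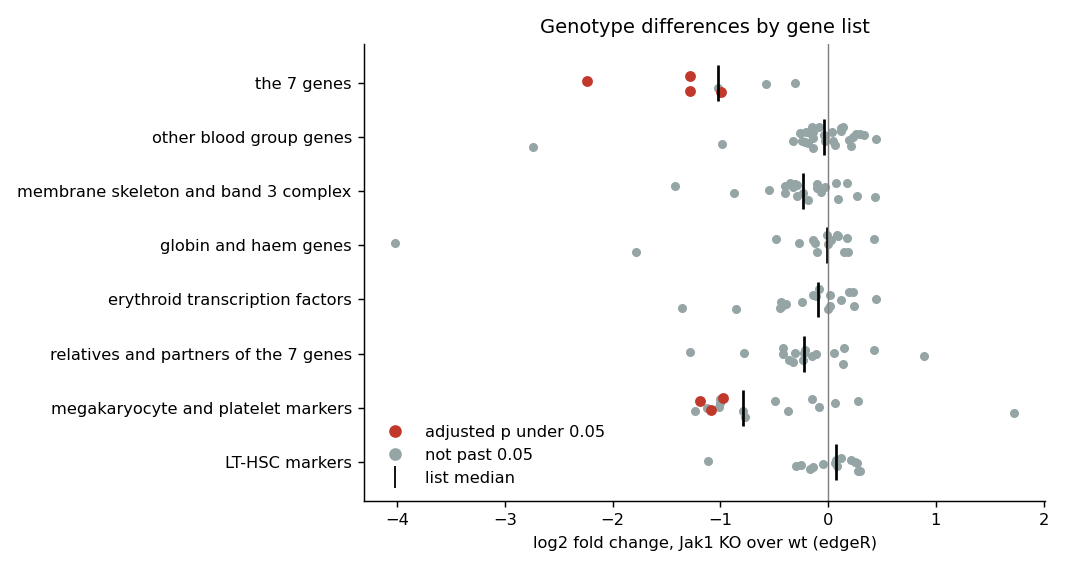
Log2 fold change of Jak1 KO over wt (edgeR) of every tested gene, by list, with a black bar at each list's median and red points past an adjusted p of 0.05. The medians of the other red-cell lists lie between -0.23 and -0.01, and that of megakaryocyte and platelet markers at -0.795.

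Markers of other cell types were set beside these values. Later erythroid markers had 14 genes in the table, of which Hba-a1, Hba-a2 and Hbb-b2 were at 0 in every library, and by edgeR 0 of the 9 tested passed (1 had an unadjusted p under 0.05), with a median of -0.45. The 0 counts include wt 2, where Beta-s stood at 3450, so they may not mean that these globin transcripts were absent. Why they were 0 was not tested, and the sums may miss globin reads. The sums of the later erythroid markers, given above, overlapped between genotypes, and their part in the differences was not tested. In wt 2, the library rich in globin, Darc was the highest of the 3 VD wt libraries, Mfsd2b, Aqp1 and Ache were the lowest, and Slc14a1, Ermap and Kel lay in the middle. Endothelial markers, relevant to Aqp1 and Darc, summed to 588 to 921 CPM in Jak1 KO and 642 to 868 in wt, with 0 of 11 past the threshold (2 at an unadjusted p under 0.05, median -0.09). Markers of B cells, of T and NK cells, of neutrophil granules and of monocytes likewise had 0 genes that passed by edgeR, with 0 of these at an unadjusted p under 0.05.

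Megakaryocyte and platelet markers were lower in Jak1 KO within both sets. They summed in ZL to 1870, 1860 and 2710 CPM in Jak1 KO libraries, against 3070, 3160 and 3860 in wt, and in VD to 1750, 1770 and 1710 in Jak1 KO, against 2840, 2310 and 2350 in wt. Of the 19 genes 17 were tested and 3 fell, Itga2b, F2rl2 and F2r (log2 fold changes -1.08, -1.19 and -0.98), and none of the 19 was at 0 throughout. The part of these cells or transcripts in the genotype differences of the 7 genes was not tested.

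**Figure D5:**
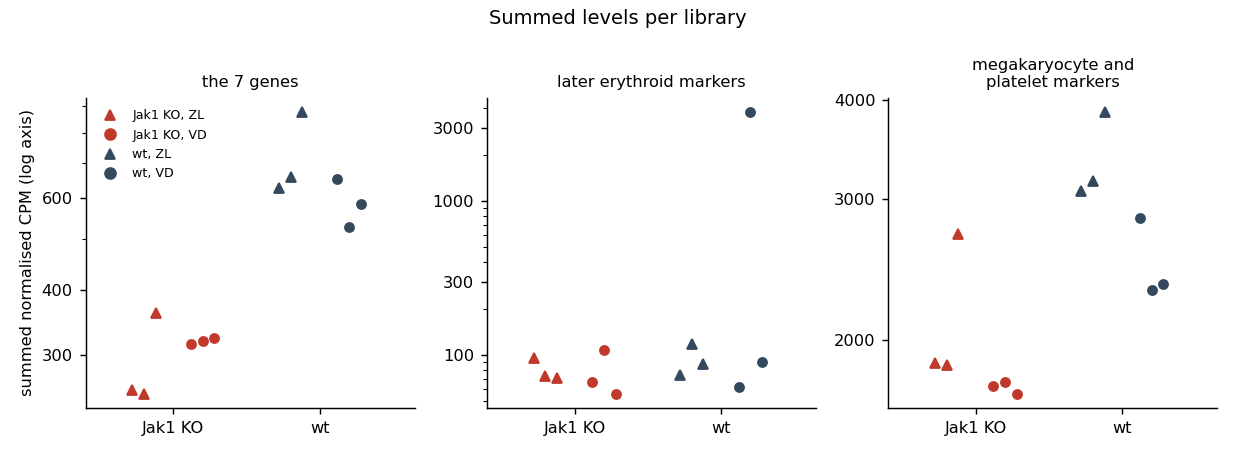
Summed normalised CPM per library (log axis) of the 7 genes, of later erythroid markers and of megakaryocyte and platelet markers, by genotype and name set. The 7 genes sum to 253 to 361 in Jak1 KO and 527 to 876 in wt, while the erythroid sum stands out in 1 wt library, at 3790.

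The genes whose pattern over the 12 libraries was most like each of the 7 were found by Pearson's r of log2 CPM, among genes of at least 5 CPM on average. These libraries share genotype and name set, which raise r between any genes that differ with either. Nearest to Slc14a1 were Ifit1, Oasl2 and Fermt3 (r = 0.96 each), and nearest to Aqp1 were Nlrc5, Oas3 and Vwf (0.97, 0.96 and 0.96). Ache was most like Pde10a, Itga2b and Oas3 (0.95, 0.95 and 0.93), and Mfsd2b most like Clca1, Gm12185 and Pde10a (0.97, 0.96 and 0.94). For Darc they were Rsad2, Irf7 and Sla (0.95, 0.91 and 0.90). The genes most like Ermap (Nlrc3, Trpm4 and Irf8, 0.78, 0.78 and 0.77) and Kel (Rnf121, Ccdc114 and Fdxr, 0.90, 0.85 and 0.81) differed in mean between genotypes by less than 1 SD.

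With the mean of each genotype and set removed, residual r was above 0 for every pair of Slc14a1, Mfsd2b, Aqp1 and Ache. Residual r was 0.67 for Aqp1 and Mfsd2b, 0.63 for Aqp1 and Ache, 0.62 for Slc14a1 and Aqp1, 0.55 for Slc14a1 and Ache, 0.52 for Ache and Mfsd2b and 0.36 for Slc14a1 and Mfsd2b (12 libraries). Of the scarce genes, Kel had a residual r of 0.66 with Darc, 0.51 with Ermap and -0.55 with Ache. Ermap had one of -0.41 with Ache. Darc had a residual r of -0.04 with Slc14a1, -0.10 with Aqp1, -0.32 with Ache and 0.09 with Mfsd2b. Library quality is shared by all genes of a library and enters these values, which are descriptions. The highest residual r with any gene of at least 5 CPM was 0.988 for Aqp1 (Clip2) and 0.984 for Ache (Slc39a3). It was 0.968 for Mfsd2b (Aph1c) and 0.966 for Slc14a1 (Zfp870). Whether Slc14a1, Mfsd2b, Aqp1 and Ache are more alike than other genes was not tested.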

How the data were processed

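Poly-A RNA of LT-HSCs from 12 samples was extracted with TRIzol and made into TruSeq version 2 libraries, per the labels' protocols. The authors' values are whole read counts for each gene, without normalisation. The submitters' processing notes name STAR 2.3.0e, featureCounts, Subread and mm10. The annotation, the strand setting and other versions were not given in the sources used here, so reads of overlapping genes cannot be told apart. Columns were matched to samples by description. Genotype came from titles and name set (ZL or VD) from descriptions.

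Here edgeR 4.0.16 (R 4.3.3) was run on the counts with filterByExpr, TMM, a model with name set and genotype, the quasi-likelihood test, and Benjamini-Hochberg adjustment over all 13184 genes (threshold 0.05). SEs were derived from each log2 fold change and its F statistic (their ratio after taking the root of F). Values after ± are SDs. Log2 CPM had a prior count of 2. The most similar pair of libraries within a genotype and set differed by a chi-square of 13.8 per degree of freedom, so none was counted as a duplicate. Exon lengths matched 23114 of 23472 symbols. Scripts were tested on simulated data. The 7 genes, the lists and the tests were chosen with earlier results of these data known. Named were the 7 genes, the 2 genes of smallest p in each list with none past the threshold, those past it (up to 4), and the 3 most alike genes. Bche, Rhag, Klf1, Cadm3 and Beta-s were added after values were seen. Alternatives were DESeq2 1.42.0 (size factors and Wald test), limma-voom (limma 3.58.1), other filters, Rn45s left out, no set term, a replicate block, each set alone and each library left out. Leaving out Jak1 KO 4, Jak1 KO 6 and wt 6 together was added after seeing the data.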

Additional observations from a re-analysis of the deposited data

Results flagged for a closer look

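Ermap in the library Jak1 KO 2, at 12.9 normalised CPM, stood apart from the other 5 Jak1 KO libraries, which ranged from 0.539 to 2.62. It was the 1 value of the 14 groups of 6 checked (7 genes in each genotype) whose gap to the nearest library, relative to the range, exceeded Dixon's 95% limit, which chance exceeds in about 1 of 20 groups. That rate assumes libraries of a single kind, whereas each group held both ZL and VD libraries. Ermap differed between these sets (log2 fold change -2.10), so the rate may not hold for it. In VD, wt 3 stood at 8.04. Without Jak1 KO 2 the log2 fold change of Ermap for Jak1 KO over wt was -1.25.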

How the results depend on the processing

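The log2 fold changes of Slc14a1, Mfsd2b, Aqp1, Ache and Darc stayed below 0 in all 23 alternatives. Slc14a1, Mfsd2b and Ache were past the threshold in all 12 fits that left out 1 library, and the number of the 7 genes past it ranged there from 3 to 4, and of all genes from 39 to 77. Without the set term 1 of the 7 and 14 of all genes passed, in ZL alone 0 and 0, while in VD alone 4 and 149 did. All genes past the threshold numbered 126 with DESeq2, 220 with limma-voom and 96 without the 3 ZL libraries. Calls among the other red-cell genes were 1 with DESeq2, 5 with limma-voom, 2 in VD alone, 1 with the replicate block, 1 without the 3 ZL libraries, and 0 to 1 with 1 library left out. Gata1 was the single call wherever there was 1, and was among the 5 and the 2. In VD alone Slc14a1 had a log2 fold change of -0.735 and Mfsd2b -0.99, and in ZL alone Mfsd2b -1.53. Ermap turned to 0.66 with limma-voom and 0.31 in VD alone, and Kel to 0.23 without the 3 ZL libraries and from -0.58 to 0.25 with 1 library left out. The cause of these changes was not tested, beyond the smaller number of libraries.

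For ZL over VD, Ermap was not past the threshold with limma-voom (-1.34), nor Darc without the 3 ZL libraries (1.16). With 1 library left out Darc ranged from 1.12 to 1.596 and Mfsd2b from -0.22 to 0.0073. The interaction ranged from -0.91 to 0.0056 for Aqp1, -0.19 to 1.5 for Darc and -0.42 to 1.49 for Kel. By median transcript length, which short annotated fragments lower, the wt ranks were 2 for Ache, 3 for Mfsd2b, 4 for Aqp1, 5 for Ermap, 6 for Kel and 7 for Darc. On residuals, r was 0.615 for Slc14a1 with Ifit1, 0.861 for Aqp1 with Nlrc5, 0.27 for Ache with Pde10a, 0.809 for Darc with Rsad2 and 0.559 for Mfsd2b with Clca1. The labels state no pairing. Deviations of same-numbered libraries correlated at 0.0429 to 0.668, over 0.1 for 4 of the 6 numbers and not for all, so the numbers were not taken as pairs. With the replicate block 72 genes and 4 of the 7 passed, Aqp1 in place of Darc.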
